A study of Mus musculus with 4 samples.

Results

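Histone H3 acetylated at lysine 9 (H3K9ac) was examined at 42 genes for developmental transcription factors outside the Hox clusters, out of 21887 protein-coding genes annotated on the mouse genome build mm10. The members were chosen by name as lineage regulators of tissues other than blood, and their annotated spans plus 1 kb on either side were searched for peaks. The cells were myeloid-derived suppressor cells (MDSC), a class of immature myeloid cell able to suppress T cell responses, grown from mouse bone marrow and made senescent in vitro. They were kept under a condition labelled CM, which the labels do not expand, or under CM with romidepsin, an inhibitor of histone deacetylases. Chromatin was immunoprecipitated with an antibody to acetylated H3K9 and sequenced, with 1 library per condition and 1 input library for each. The sources used here do not give the strain, sex and age of the mice or the dose and duration of treatment. With 1 library per condition no difference given here has a replicate check or a test between conditions.

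The members encode DNA-binding proteins that switch on whole tissue programmes: the Pax, Sox, Nkx, Fox, Tbx and Gata families, basic helix-loop-helix factors such as Neurod1 and Myod1, LIM homeobox factors, and other homeobox factors. Outside the tissue in which each acts, many such genes are held silent by Polycomb complexes, which place the repressive mark H3K27me3, often over promoters rich in CpG dinucleotides. H3K9ac is found at active promoters and enhancers. Deacetylases of class I, the main targets of romidepsin, remove it.

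Peaks were first counted at 20 genes for myeloid transcription factors, among them Spi1, Cebpa, Irf8 and Klf4. All 20 had a CM peak in the span plus 1 kb (53.6% of all genes). All 20 also had a romidepsin peak (68.3% of all genes). This count cannot establish the cell type, since all 15 Polycomb and H3K27 demethylase genes had peaks in both lists too. The lists were drawn up with results of these data known. The lists differ in size, with 16419 peaks (23.0 Mb in all) for CM and 103336 peaks (200.4 Mb) for romidepsin. Read depth is unknown for both, so a member without a peak is one at which H3K9ac was not detectable at this depth.

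Nearly all members lacked an H3K9ac peak in CM, and 14 had at least 1 in the romidepsin list. In CM, 1 of the 42 members, Lhx2, had a peak in its span plus 1 kb (2.38%, exact Clopper-Pearson 95% interval 0.0603 to 12.6), where 53.6% of all genes had one. In the romidepsin list 14 of 42 had a peak (33.3%, interval 19.6 to 49.5), where 68.3% of all genes had one. The 13 members whose peaks were in the romidepsin list alone made up 31.0% (interval 17.6 to 47.1), and the share over all genes was 14.8%. Only a gene without a CM peak can be counted so. Among genes without a CM peak, 31.7% of members and 31.8% of all genes had a romidepsin peak. The intervals cover counting error only.

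Of the 14 members, 9 had a romidepsin peak at a gene end and 5 in the gene body alone. A gene end here is the window of 1 kb on either side of an annotated end. A gene body peak lies outside both windows and can still lie at a start site inside the span. At gene ends, 1 of 42 members had a CM peak (48.8% of all genes) and 9 had a romidepsin peak (63.8% of all genes). Of these 9, 8 had it in the romidepsin list only (15.0% of all genes). The romidepsin list placed 24 peaks in the member spans plus 1 kb, 11 at gene ends and 13 in gene bodies, against 1 peak in CM. Lhx2 and Lhx9 held 4 of the body peaks each. The 5 members with a body peak and no gene end peak were Pax3, Pax6, Nkx2-2, Foxa1 and Neurod1. Peaks covered 27.1 of 964.2 kb of member sequence with romidepsin (2.81%) and 0.477 kb in CM (0.0495%). Over all genes the covered shares were 14.0% and 2.16%.

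The members were short, with a median span of 6.41 kb against 17.2 kb over all genes. Among the 9043 genes with a span between 4.01 and 25.1 kb, the quartiles of the members, 57.3% had a CM peak and 73.0% a romidepsin peak in the span plus 1 kb. The member shares of 2.38% and 33.3% were below those of genes of like length as well. That length range was chosen after the counts were seen.

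**Figure D1:**
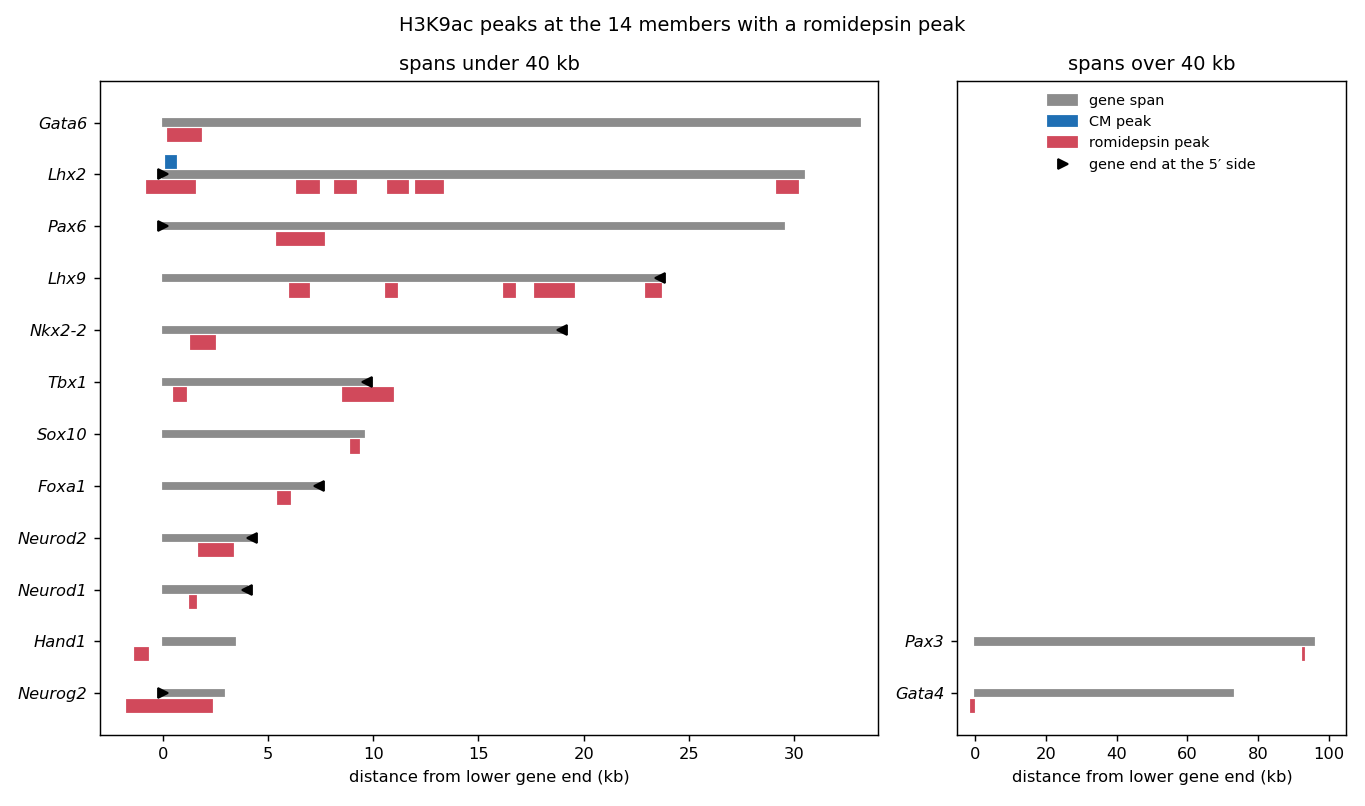
Peaks at the 14 members with a romidepsin peak, drawn to scale against the distance in kb from the lower annotated gene end. Grey bars are gene spans, red bars romidepsin peaks, the blue bar the CM peak of Lhx2, and black arrowheads mark the 5′ gene end where the strand was listed. Lhx2 and Lhx9 carried 6 and 5 romidepsin peaks, Tbx1 had 2, and the other 11 members had 1 each.

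The 24 romidepsin peaks at members, 11 of them at Lhx2 and Lhx9, had medians close to those of their whole list. Their fold enrichment is the authors' ratio of a peak to background, and how that background was set is not given. The median fold was 2.72 (range 2.32 to 3.49), and the median over all romidepsin peaks was 2.64. Of the 24, 17 lay between the quartiles of the whole list (2.41 and 3.04), 5 above and 2 below. Their −log10 q, a measure of evidence, ran from 1.45 to 4.61 with a median of 2.5 against 2.33 over the list. Their lengths ran from 293 to 4035 bp with a median of 990 bp against 957 bp over the list. Of the 24, 23 overlapped no CM peak. The 90024 romidepsin peaks without a CM overlap had lower medians, a fold of 2.58, a −log10 q of 2.14 and a length of 806 bp. At 13 members the romidepsin list alone had a peak. The median strongest fold was 2.63 at these 13 members and 2.98 at the 3230 genes of that kind in the whole annotation. Folds of the CM and the romidepsin list rest on different backgrounds and do not measure a gain or a loss.

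**Figure D2:**
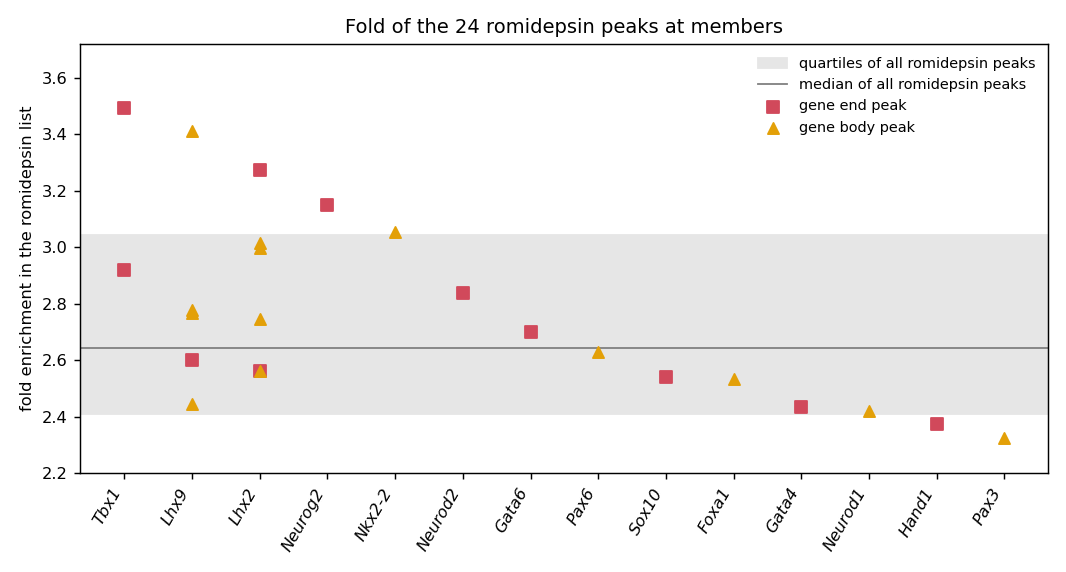
Fold enrichment of each of the 24 romidepsin peaks at the 14 members, ordered by the strongest peak of each. Squares are gene end peaks, triangles gene body peaks, the grey band the quartiles of all 103336 romidepsin peaks (2.41 to 3.04) and the line their median of 2.64. The strongest peaks of Tbx1, Lhx9, Lhx2, Neurog2 and Nkx2-2 lie above the band, and those of Hand1 and Pax3 below it.

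Start sites were listed for 29 of the 42 members in the RefSeq promoter table of build GRCm38.p6, the assembly mm10 represents. The table did not list Hand1, Tbx5, Myod1, Wt1, Sox17, Gata6, Sox3, Dlx5, Sox10, Gata4, Sox9, Pax3 and Tbx3. Within 1 kb of a start, 1 of 29 members had a CM peak (51.4% of all 17492 genes with a listed start) and 6 had a romidepsin peak (63.1%). The 6 were Lhx2, Lhx9, Neurog2, Neurod2, Tbx1 and Foxa1. Of the 19 romidepsin peaks at members with a listed start, 9 lay within 1 kb of one. Some of these, at Foxa1, Lhx2 and Lhx9, are counted above as gene body peaks. Taking the most upstream listed start of each gene, a romidepsin peak covered the site itself at 4 of 29 members (13.8%). The share was 58.0% over all genes and 15.3% over the 7974 genes without a CM peak in the span.

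**Figure D3:**
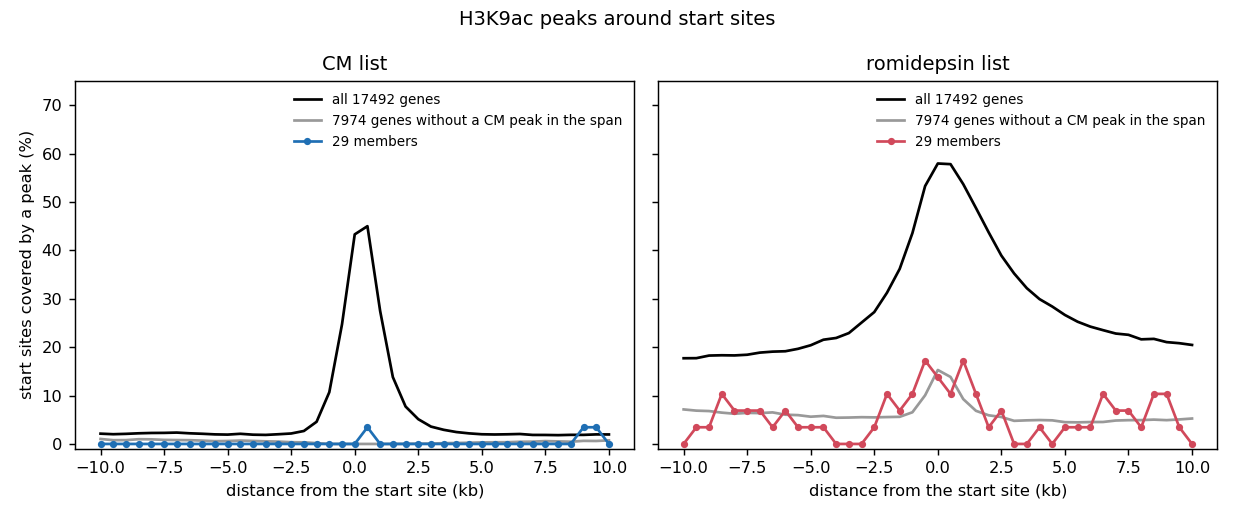
Share of most upstream start sites covered by a peak, in percent, at each distance from 10 kb upstream to 10 kb downstream in steps of 0.5 kb, for the CM list (left) and the romidepsin list (right). Black is all 17492 genes, grey the 7974 genes without a CM peak in the span, coloured points the 29 members. At the start itself the members had 13.8% with romidepsin, against 15.3% for the grey line. Elsewhere they lay above it, as at 1 kb downstream (17.2% against 9.27%), or below it, as 3 kb to either side (0%). Each romidepsin member point rests on at most 5 of 29 genes, among them Lhx2, which has a CM peak.

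The promoters of members were rich in CpG. In the 300 bases from 250 before to 50 after the most upstream start, members held a median of 17 CpG dinucleotides (range 6 to 40), and all genes a median of 13. The motif counted is CG, which reads the same on both strands. The medians were 22 for all genes with a CM peak at the start, 10 for those with a romidepsin peak only and 3 for those with neither. The median was 17 both for the 9 listed members with a romidepsin peak in the span and for the 20 without. At least 15 CpG, or 5 per 100 bases, were found in 18 of 29 members (62.1%) and in 47.4% of all genes. The 18 were 7 of the 9 with a romidepsin peak (77.8%) and 11 of the 20 without (55.0%), a difference that was not tested. Of all genes at that CpG count, 80.8% had a CM peak at the start. Of the 17 members at that count without a CM peak, 3 had a romidepsin peak at the start (17.6%, interval 3.80 to 43.4), namely Foxa1, Neurod2 and Tbx1. The share was 46.7% over the 1444 genes of that kind.

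The 250 bases before the most upstream listed start are printed for 6 members, 5′ to 3′ on the gene's strand, with each CpG in capitals, to show how CpG content and peaks went together or apart. Lhx2 (chr2:38339031-38339280, plus strand) lies within the romidepsin peak and just before the CM peak, with 25 CpG in the printed bases. Neurog2 (chr3:127632886-127633135, plus strand, 8 CpG) lies wholly inside the longest member peak and was chosen after its values were seen. Tbx1 (chr16:18590672-18590921, minus strand, 10 CpG) lies inside the peak over its start. Lhx9 (chr1:138842445-138842694, minus strand, 4 CpG) lies between 2 romidepsin peaks. Nkx6-1 (chr5:101664712-101664961, minus strand, 30 CpG) and Otx2 (chr14:48667645-48667894, minus strand, 6 CpG) have no peak and hold the highest and the lowest CpG count of the members without one.
Lhx2: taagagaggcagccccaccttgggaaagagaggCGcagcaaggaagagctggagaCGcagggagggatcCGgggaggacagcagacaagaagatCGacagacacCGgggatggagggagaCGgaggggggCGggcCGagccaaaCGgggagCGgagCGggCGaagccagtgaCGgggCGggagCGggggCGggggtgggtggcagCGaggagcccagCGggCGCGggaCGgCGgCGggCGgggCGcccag
Neurog2: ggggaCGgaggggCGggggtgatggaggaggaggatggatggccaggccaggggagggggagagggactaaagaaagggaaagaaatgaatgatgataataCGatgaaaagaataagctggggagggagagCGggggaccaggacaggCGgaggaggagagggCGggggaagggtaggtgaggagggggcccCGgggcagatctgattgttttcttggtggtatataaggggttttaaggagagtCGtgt
Tbx1: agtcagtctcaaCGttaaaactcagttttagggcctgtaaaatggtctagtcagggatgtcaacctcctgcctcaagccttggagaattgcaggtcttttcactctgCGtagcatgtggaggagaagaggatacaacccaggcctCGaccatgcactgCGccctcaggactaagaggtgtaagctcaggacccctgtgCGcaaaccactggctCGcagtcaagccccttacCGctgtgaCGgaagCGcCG
Lhx9: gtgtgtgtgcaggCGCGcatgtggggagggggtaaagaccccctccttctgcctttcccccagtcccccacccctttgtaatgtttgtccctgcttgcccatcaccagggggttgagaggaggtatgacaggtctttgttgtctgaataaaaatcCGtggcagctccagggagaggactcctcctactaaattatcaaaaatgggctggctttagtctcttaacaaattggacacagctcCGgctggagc
Nkx6-1: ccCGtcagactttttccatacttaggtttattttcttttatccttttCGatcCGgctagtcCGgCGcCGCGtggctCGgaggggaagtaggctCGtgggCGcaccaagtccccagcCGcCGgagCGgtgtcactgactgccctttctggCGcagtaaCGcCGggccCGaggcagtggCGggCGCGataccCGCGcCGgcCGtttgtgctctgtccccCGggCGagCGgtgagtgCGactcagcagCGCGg
Otx2: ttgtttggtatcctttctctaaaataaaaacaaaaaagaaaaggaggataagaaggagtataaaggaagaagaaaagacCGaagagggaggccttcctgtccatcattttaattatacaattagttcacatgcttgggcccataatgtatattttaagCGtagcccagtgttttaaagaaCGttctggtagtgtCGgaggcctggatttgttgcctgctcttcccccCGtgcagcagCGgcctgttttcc
Nkx6-1, the densest in CpG, lay 98.8 kb from the nearest romidepsin peak, while the sparser Neurog2 and Tbx1 promoters lay inside one. The dense Lhx2 promoter also lay inside a romidepsin peak, and the sparse Otx2 promoter had none. These picked promoters do not measure how CpG content and peaks relate.

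Factors of the nervous system held most of the peaks, mainly through Lhx2 and Lhx9. Of 13 such members 7 had a romidepsin peak (68.3% of all genes) and 1 a CM peak (53.6% of all genes). These members carried 16 of the 24 romidepsin peaks, and 11 of the 16 lay at Lhx2 and Lhx9. Lhx2, a LIM homeobox factor of forebrain, eye and hair follicle, lies on chromosome 2 from 38339271 to 38369737. Its CM peak ran from 38339420 to 38339896 (477 bp, fold 3.60, −log10 q 1.55) and began 139 bp past the first listed start site. This peak was weak within its list, with a higher fold than 8.54% of the CM peaks, and the median CM peak had a fold of 5.04. The romidepsin peak at the same place ran from 38338523 to 38340797 (2275 bp, fold 3.28, −log10 q 4.03) and covered the start. A further 4 romidepsin peaks lay in the gene body and 1 at the downstream end, so that peaks covered 23.5% of the span plus 1 kb. One of the body peaks, from 38351279 to 38352579 (fold 3.01), covered the other listed start site at 38351308.

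Lhx9, a LIM homeobox factor of brain, limb and gonad, lies on chromosome 1 from 138825186 to 138848839. It had no CM peak, and the nearest one lay 7.45 kb away. With romidepsin it had 5 peaks covering 17.5% of its span plus 1 kb. The strongest ran from 138842873 to 138844721 (1849 bp, fold 3.41, −log10 q 4.45) and lay inside the gene, its nearer edge at -429 bp from the listed start site (negative is upstream). Peaks therefore flanked the listed start on both sides, the nearest downstream peak lying 529 bp from it. The listed start lies inside the annotated span. A further peak, from 138848142 to 138848846 (fold 2.60), lay at the annotated 5′ gene end, its nearer edge at -5698 bp from the listed start.

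Neurog2, a proneural factor that commits progenitors to neurons, carried the longest peak of any member. It ran on chromosome 3 from 127631014 to 127635048 (4035 bp, fold 3.15, −log10 q 3.75), longer than 88.0% of the romidepsin peaks. It covered the start site and 67.6% of the span plus 1 kb, the highest share of any member, and the nearest CM peak lay 76.8 kb from it. Neurog1, the related factor of sensory neurons, had no peak, with the nearest romidepsin peak 5.78 kb and the nearest CM peak 66.1 kb away.

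Neurod2 and Neurod1 act later, in the differentiation of neurons, and Neurod1 also in pancreatic islet cells. Neurod2 had a romidepsin peak on chromosome 11 from 98327118 to 98328727 (1610 bp, fold 2.84) inside the gene, 918 bp downstream of the start. At Neurod1 the peak was 293 bp long, the shortest length in the romidepsin list (chromosome 2, 79453913 to 79454205, fold 2.42). It lay 2431 bp downstream of the start and outside both gene end windows.

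Pax6, a master regulator of the eye, had a romidepsin peak of 2217 bp in the gene body (chromosome 2, 105674335 to 105676551, fold 2.63), 5439 bp downstream of the first of its 2 listed start sites. Nkx2-2, a factor of ventral neural tube and pancreas, had a body peak of 1168 bp (chromosome 2, 147177795 to 147178962, fold 3.05), 7440 bp downstream of the start. Neither gene had a CM peak nearby, the closest lying 206 and 162 kb from the genes.

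The neural members without a peak were Sox1, Sox2 and Sox3, which maintain neural progenitors, Otx2, a forebrain factor, Nkx6-1, a factor of motor neurons and beta cells, and Neurog1. Apart from Neurog1, the nearest romidepsin peak lay between 98.8 kb (Nkx6-1) and 568 kb (Sox2) away. Sox2, also a factor of pluripotency, was the member farthest from any romidepsin peak.

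Of 6 factors of the neural crest and of skeletal muscle, 2 had a romidepsin peak (68.3% of all genes). None had a CM peak (53.6% of all genes). Sox10, a factor of glia and pigment cells, had a peak of 367 bp just inside its upper annotated end (chromosome 15, 79163863 to 79164229, fold 2.54). Pax3, a factor of neural crest and muscle progenitors, had a body peak of 293 bp (chromosome 1, 78194031 to 78194323) with the lowest fold of all 24 (2.32, −log10 q 1.45). Foxd3, Pax7, Myod1 and Myog had none. Myod1 and Myog drive muscle differentiation, and the nearest romidepsin peaks lay 11.7 and 1.445 kb from them, the latter just beyond the 1 kb margin.

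Heart factors had a romidepsin peak at 3 of 6 members (68.3% of all genes) and a CM peak at none (53.6%). Tbx1, a T-box factor of the pharynx and outflow tract, had 2 peaks. The peak over its start ran on chromosome 16 from 18589529 to 18591927 (2399 bp, fold 2.92, −log10 q 3.05). The other, near the 3′ end from 18581487 to 18582048 (562 bp), had the highest fold and the highest −log10 q of all 24 (3.49 and 4.61). Gata4, a zinc finger factor of heart and gut, had a peak wholly outside the gene (chromosome 14, 63197794 to 63198498, fold 2.43, −log10 q 1.72), 0.416 kb from its lower end. A CM peak lay 4.92 kb from the gene. Hand1, a factor of heart and placenta, likewise had a peak outside the gene (chromosome 11, 57827392 to 57827986, fold 2.38, −log10 q 1.57). Nkx2-5, Tbx5 and Hand2 had no peak, and the nearest romidepsin peak lay 4.78, 231 and 102 kb away.

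Endoderm factors had a romidepsin peak at 2 of 5 members (68.3% of all genes) and a CM peak at none (53.6%). Gata6, a factor of primitive endoderm and heart, had a peak of 1587 bp just inside its lower end (chromosome 18, 11052748 to 11054334, fold 2.70, −log10 q 2.42). It lay 325 kb from the nearest CM peak, the farthest of the 24. Foxa1, a pioneer factor of liver and lung, had a peak of 593 bp over its listed start site (chromosome 12, 57546092 to 57546684, fold 2.53). An end of Ttc6 also lay within 1 kb of this peak. Foxa2, Sox17 and the lung and thyroid factor Nkx2-1 had none, with the nearest romidepsin peak between 186 and 328 kb away.

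No member grouped under skeleton and limb, or under kidney, gonad and thyroid, had a peak in either list. Each member was put in a single group, so Lhx9, which also acts in limb and gonad, was counted as neural. The first group holds 8 members, Pax1, Pax9, Sox9, Tbx3, Dlx5, Msx1, Msx2 and Twist1. The nearest romidepsin peak lay between 73.4 kb (Dlx5) and 431 kb (Tbx3) from them. Sox9 drives cartilage formation and Twist1 marks mesenchyme. The second group holds 4 members, Pax2, Pax8, Wt1 and Six2, for which that distance ran from 10.1 kb (Pax8) to 112 kb (Six2). By family, the same holds for the homeobox genes Otx2, Six2, Dlx5, Msx1 and Msx2, with 0 of 5. In the other families the romidepsin counts were 2 of 7 Pax, 1 of 6 Sox, 1 of 4 Nkx, 1 of 3 Fox, 1 of 3 Tbx, 2 of 2 Gata, 4 of 9 basic helix-loop-helix and 2 of 2 LIM homeobox genes. Over all genes, 68.3% had a romidepsin peak and 53.6% a CM peak. No test between groups or families was run.

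Members lay in regions poor in peaks. The median distance from a member to the nearest CM peak was 138 kb, and to the nearest romidepsin peak 80.9 kb. Over all genes both medians were 0, since most genes held a peak. Members farther than 100 kb from a CM peak numbered 24 of 42, against 22.8% of all genes. Farther than 100 kb from a romidepsin peak were 17, against 16.7%. Within 100 kb of the gene there was a median of 0 CM and 1.5 romidepsin peaks for members, and 3 and 17 for all genes.

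For a good part of the members without a romidepsin peak, both lists had their nearest peak about equally far off. Of the 28 members without a romidepsin peak, 10 had the nearest peaks of both lists at distances within 1 kb of each other, for example Sox2 (568 kb in both) and Pax9 (346 and 345 kb). In 5 of the 28 a romidepsin peak lay within 12 kb, namely Myog, Nkx2-5, Neurog1, Pax8 and Myod1. Sox9 had the largest difference, 777 kb from a CM peak and 273 kb from a romidepsin peak.

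**Figure D4:**
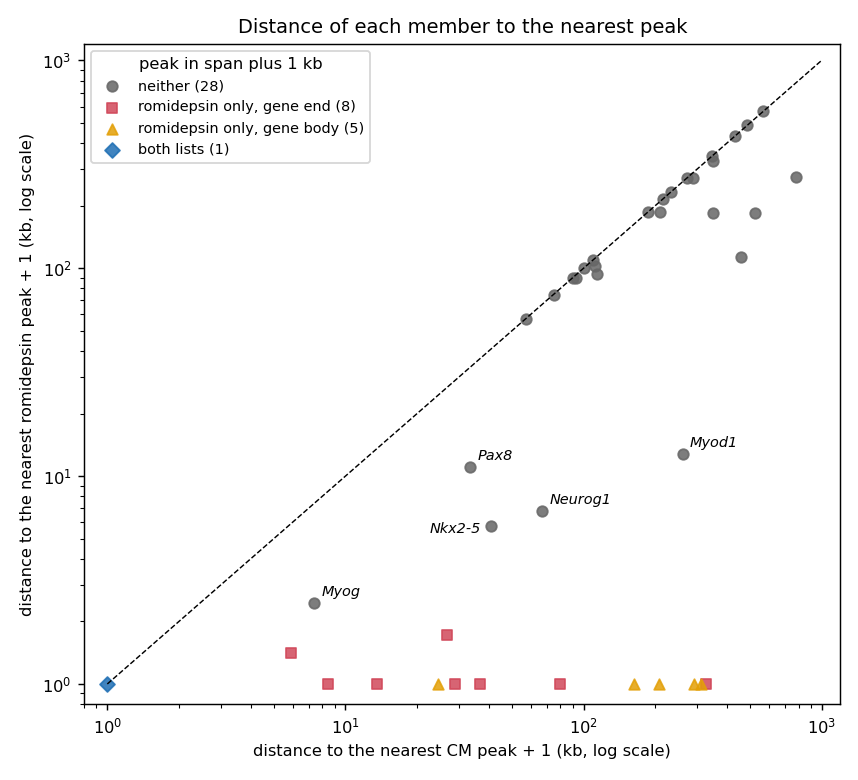
Distance in kb from each of the 42 members to the nearest CM peak (horizontal) and the nearest romidepsin peak (vertical), with 1 kb added, on log scales. Marker shapes give where a member had a peak, and the dashed line marks equal distances. Most of the 28 members without a peak lie on or close to the line, and 5 that had a romidepsin peak within 12 kb are named.

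Members with a romidepsin peak lay closer to CM peaks, in the median, than the others. Their median distance to a CM peak was 31.7 kb, against 212 kb for the 28 others. They include Lhx2, at 0 kb through its own CM peak. Their spans were also longer, with a median of 14.3 kb against 5.54 kb, and the part of span length was not tested. Of the 10 members under 50 kb from a CM peak without one of their own, 7 had a romidepsin peak (70.0%, interval 34.8 to 93.3), and of 3704 such genes overall 59.9% had one. Of the 31 members at 50 kb or more, 6 had a romidepsin peak (19.4%, interval 7.45 to 37.5), and of 6456 such genes overall 15.7%. Without regard to distance, 13 of the 41 members without a CM peak had a romidepsin peak (31.7%, interval 18.1 to 48.1), and of 10160 such genes overall 31.8%. Set beside genes that likewise had no CM peak, the members thus had a romidepsin peak in a share close to the background.

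The members were set beside 80 other genes of the same families. Of these relatives 16 had a CM peak in the span plus 1 kb (interval 11.9% to 30.4%) and 50 a romidepsin peak (62.5%, interval 51.0 to 73.1). The member shares of 2.38% and 33.3% were lower in both lists. Among genes without a CM peak, 34 of 64 relatives (53.1%) and 13 of 41 members had a romidepsin peak. Among the relatives, Foxd2 had the highest romidepsin fold (4.39). Of 35 family relatives and partner factors known in blood cells, 9 of which are also among the 80, 29 had a CM peak and 32 a romidepsin peak. They include Lmo2, a partner of Gata factors in blood stem cells, with the highest CM fold (7.57), and Foxo3, a factor of stress resistance, with the highest romidepsin fold (4.83). Eomes, Gata2 and Tbx21 had one in the romidepsin list only. The Polycomb and H3K27 demethylase genes had a peak at 15 of 15 in both lists. No test of these differences was run, and all lists were drawn up with results of these data known.

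**Figure D5:**
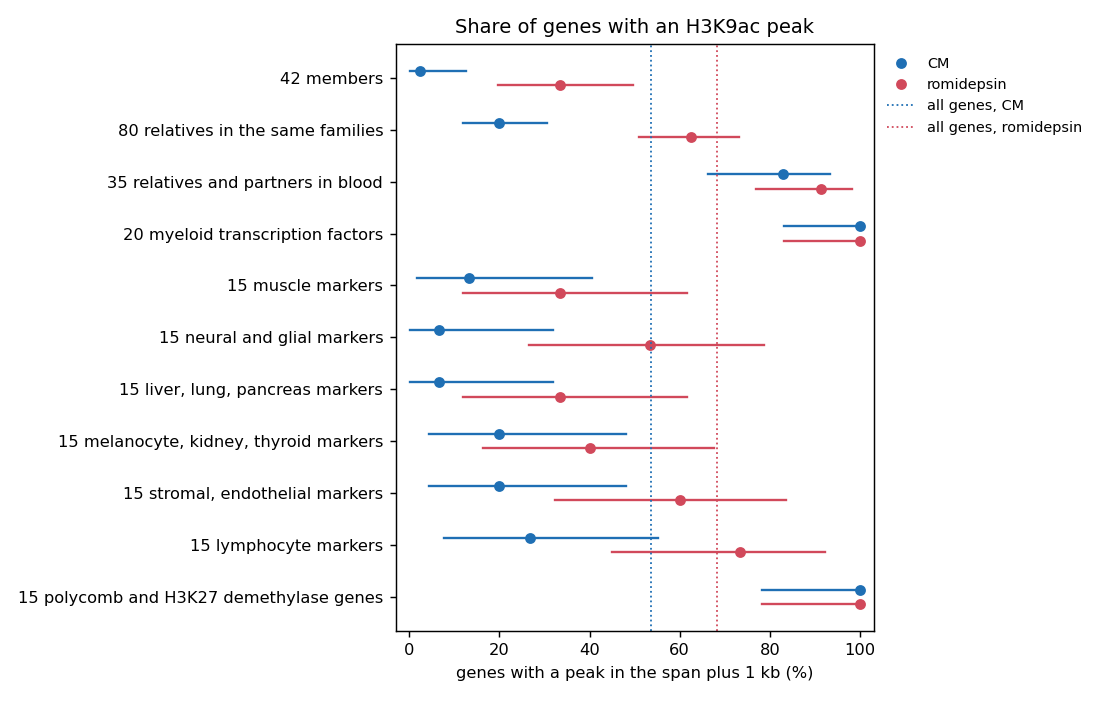
Percent of genes with a peak in the span plus 1 kb in the CM (blue) and the romidepsin list (red) for the 42 members and 10 other lists. Points are shares, lines exact 95% binomial intervals for counting error, and dotted lines the shares over all genes (53.6% and 68.3%). The members have the lowest CM share, 2.38%, and the myeloid factors are at 100% in both lists.

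The member counts rested on peaks of moderate evidence. At a −log10 q of at least 2 the CM peak of Lhx2 no longer counted, which left 0 members in CM against 51.2% of all genes. At that threshold 8 of 42 had a romidepsin peak, against 65.8% of all genes, and all 8 had it in that list only, against 14.6%. At 5 or more no member had a peak, while 49.8% of all genes still had one. With the romidepsin list limited to its 16419 strongest peaks, which left out peaks with a −log10 q under 4.34, 2 members had a peak, Tbx1 and Lhx9, against 54.5% of all genes.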

How the data were processed

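H3K9ac peak lists of 2 immunoprecipitated libraries were used. The 2 inputs were not analysed here. Per the submitters' processing notes, Bowtie2 2.4.4, MACS2 2.2.7.1 and deepTools 3.5.1 were used with build mm10. The sources used here do not give settings or the role of the input. For each broad peak the authors deposited a position, an integer score, a fold enrichment (a ratio to background) and 2 evidence values, −log10 p and −log10 q. Only fold and −log10 q were used, to describe and filter peaks within a list.

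Peak starts were numbered from 1. Spans of 21887 protein-coding genes came from the RefSeq gene table of GRCm38.p6, and start sites, strand and sequence from the RefSeq promoter table of the same build. All 42 members matched the gene table. An overlap of at least 1 bp counted. Overlap calls were tested on simulated peaks. Intervals are exact Clopper-Pearson intervals at 95% confidence and do not include library or culture variation. The depth of either library is unknown, which limits precision, and a deeper library yields more and wider peaks.

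The 42 members and the other gene lists were chosen with earlier results of these data known. Values are given for every member with a peak, and every member without one is named. Of other lists, the gene with the highest fold in each peak list and genes making up small counts are named, except a few not reported here. The printed promoters follow a rule on fold and CpG count, with Neurog2 added afterwards. Alternatives covered thresholds on −log10 q and fold, equal numbers of strongest peaks, merged peaks, a longer overlap, and other windows and flanks. Python 3.11.15, pandas 2.3.3 and scipy 1.17.1 were used.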

Additional observations from a re-analysis of the deposited data

How the results depend on the processing

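No paired analysis was possible because each condition had 1 library and no test was run. Depth is unknown, and the romidepsin counts of members fall faster with stricter thresholds than those of all genes. Of 90 recomputed counts 50 stayed within 1.5 times the reported one, among them all those with peaks closer than 1 kb merged, with an overlap of at least 200 bp, and with windows of 500 bp or 2.5 kb. At a −log10 q of at least 2, every CM count (gene ends, spans, start sites and peaks) was 0, and the romidepsin span counts were 8 in all and 8 in that list only. At 5 and at 10, all counts in both lists were 0. At 10, 0.694% of all genes still had a romidepsin peak in the span. At a fold of at least 3, romidepsin counts were 3 at gene ends (55.6% of all genes) and 2 in that list only (7.73%), 5 over spans (59.8%) and 4 in that list only (7.19%), 3 at start sites (55.6%), and 6 peaks. The 4 of 42 in that list only are near the share over all genes. With equal numbers of strongest peaks, romidepsin counts were 1 at gene ends (51.0% of all genes) and 1 in that list only (4.75%), 2 over spans (54.5%) and 2 in that list only (3.92%), 1 at start sites (51.2%), and 2 peaks. The CM count of 1 at Lhx2 stayed in this setting, since only the romidepsin list was shortened. With a flank of 5 kb, members with a CM peak numbered 2 (56.2% of all genes), with 2 CM peaks.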

Other observations

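Marker genes of the tissues in which the members act were counted in the same way, over spans plus 1 kb, in lists of 15 genes each. Over all genes, 53.6% had a CM peak and 68.3% a romidepsin peak. The muscle, neural, liver, melanocyte and stromal lists below were under both shares. With romidepsin, the intervals of the neural list (26.6% to 78.7%) and the stromal list (32.3% to 83.7%) included the share over all genes. The lymphocyte list was under the CM share and, at 73.3%, near the romidepsin share. For muscle, 2 of 15 had a CM peak (Mylpf and Tnni2) and 5 of 15 a romidepsin peak, where Ckm, Myh3 and Tnnt3 came in addition. Mylpf, a myosin light chain gene of fast muscle, had the highest fold of that list in CM (7.96) and with romidepsin (3.70). Neural and glial markers had a peak at 1 of 15 in CM, Mbp, the gene of myelin basic protein, and 8 of 15 with romidepsin. Its strongest peaks reached 6.81 in CM and 4.08 with romidepsin. Liver, lung and pancreas markers had a peak at 1 of 15, the surfactant gene Sftpc (fold 3.58), and 5 of 15 with romidepsin, among them Apoa1, Scgb1a1 and Sftpb. Melanocyte, kidney and thyroid markers had a peak at 3 of 15 (Eya1, Pmel and Tg) and 6 of 15, where Aqp2, Dct and Slc5a5 came in addition. Pmel had the highest CM fold (8.55) and Tg the highest romidepsin fold (4.13).

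For stroma and endothelium, CM peaks were found at 3 of 15 (Kdr, Pecam1 and Runx2) and romidepsin peaks at 9 of 15. Runx2, a bone factor gene, had the highest fold in both lists (6.61 and 4.48). Lymphocyte markers had a peak at 4 of 15 in CM (Cd4, Cd79a, Cd79b and Lck) and 11 of 15 with romidepsin, with Cd79a highest in CM (6.22) and Lck with romidepsin (3.96). Among the myeloid factors Irf5 was highest in CM (8.36) and Egr2 with romidepsin (4.97). Among the Polycomb and demethylase genes these were Jarid2 (7.67) and Kdm6b (4.79). Peaks over a span can belong to a neighbouring gene, and no test between lists was run.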
